A study of Homo sapiens with 9 samples.

Results

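The genes described here are 10 genes of contractile actin filaments and of the programme driven by serum response factor (SRF). They are ACTA2 and ACTG2, the actins of smooth muscle; TAGLN, CNN1, CNN2, TPM1, TPM2 and CALD1, proteins that bind along actin filaments; MYL9, a regulatory light chain of non-muscle and smooth muscle myosin; and RHOB, a small GTPase. They were chosen by name and function, without a threshold on their values but with earlier results of these data known. They make up 10 of the 26475 gene symbols measured. All 10 were in the table, and 9 of them passed the filter on low counts that left 16417 genes for testing; ACTG2 did not pass.

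RNA was sequenced from A375 cells, an established human melanoma line, after 24 hours with the vehicle DMSO, with 5 µM TP-472 or with 10 µM TP-472, an inhibitor of the bromodomains of BRD9 and BRD7, which are subunits of SWI/SNF chromatin remodelling complexes. Each of the 3 groups had 3 libraries, described as biological replicates of 1 cell line. Both doses were compared with the same DMSO libraries, so these comparisons share their controls. The RNA came from whole cultures, in which more cells expressing a gene and more RNA of it per cell cannot be told apart.

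SRF binds DNA at a short element called the CArG box. Its partners of the myocardin family, MRTF-A and MRTF-B, are held in the cytoplasm by monomeric actin and enter the nucleus when actin is driven into filaments, where they switch on genes of the actin cytoskeleton. A different set of partners, the ternary complex factors, couples SRF to MAP kinase signalling and to immediate early genes such as FOS and EGR1. Smooth muscle cells and myofibroblasts are the cells best known for high levels of ACTA2, TAGLN, CNN1 and MYL9, while tropomyosins, caldesmon and calponin 2 are found in many cell types.

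The sequences of the CArG boxes near the start sites show where the letters of this element lie in the windows searched. RefSeq promoter windows on GRCh38.p14, from 250 bases before to 50 bases after each start, were at hand for 8 of the 10 genes, all but TAGLN and MYL9. A CArG box on either strand was present in 1.29% of all 35116 windows and in 2 of the 13 windows of these genes, or by gene in 1.60% of all symbols and in 2 of the 8, ACTG2 and CNN2. With up to 1 G or C allowed in the core of the box, it was present in 8.13% of all windows and 4 of the 13, or in 9.88% of symbols and 4 of the 8 genes, the others being ACTA2 and CALD1. The boxes are given 5′ to 3′ in the direction of transcription with 10 bases on each side where the window upstream of the start allows, the box in capitals, and the SRF gene's own pair of boxes stands last for reference.
ACTA2, box beginning 121 bases before the start in the gene body, chr10:88952875-88952904, minus strand, 1 G or C in the core: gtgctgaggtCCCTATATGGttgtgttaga
ACTA2, box beginning 71 bases before the same start, chr10:88952825-88952854, minus strand, 1 G or C in the core: tgtctttgctCCTTGTTTGGgaagcaagtg
ACTG2, box beginning 110 bases before the start, chr2:73892888-73892917, plus strand: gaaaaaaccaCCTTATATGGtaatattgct
ACTG2, box beginning 73 bases before the start, chr2:73892925-73892954, plus strand: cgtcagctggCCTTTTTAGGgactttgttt
CNN2, box beginning 89 bases before the start, chr19:1026509-1026538, plus strand: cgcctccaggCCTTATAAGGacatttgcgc
CALD1, box beginning 26 bases before 1 of its 4 starts, chr7:134711463-134711492, plus strand, 1 G or C in the core: ccagaggtccCCTAAAGAGGaatacattct
SRF, box beginning 30 bases before the start, chr6:43171229-43171258, plus strand: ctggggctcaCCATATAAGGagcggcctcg
SRF, box beginning 10 bases before the same start, chr6:43171249-43171268, plus strand: agcggcctcgCCATAAAAGG
No window of TPM1, TPM2, CNN1 or RHOB held the box in either form, which says only that these letters are not in these windows.

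RHOB was 1 of the genes called here whose window held no CArG box, and its upstream stretch is shown for a different short motif, CCAAT, read on either strand. The 120 bases before its start, chr2:20446954-20447073, plus strand, hold it 2 times, marked in capitals. Of all full windows, which are longer than this stretch, 34.6% hold it at least once, so the 2 figures are not alike in length or measure.
RHOB: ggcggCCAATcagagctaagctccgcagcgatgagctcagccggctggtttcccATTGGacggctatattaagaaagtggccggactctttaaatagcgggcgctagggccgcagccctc

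The libraries held 42483091 to 51298130 expected counts each. Their normalisation factors lay between 0.957 and 1.029, and no pair of replicates was close enough to be 1 library deposited a second time. Replicate 1 at 10 µM stood apart: a spline on length and GC of the transcript took up 24.4% of the variance of its deviations across 15323 genes. The share was 13.3% and 14.7% for replicates 2 and 3 at that dose, and no library of the remaining groups exceeded 1.51%. Deviations were taken from the mean of each group, so a trend in 1 library also enters the deviations of the others in its group, with opposite sign. What sets it apart was not tested, and the results on the 10 genes whose side of a limit it moves are given with and without it. Of 8 markers of the melanocyte lineage, SOX10, MITF, PMEL and S100B averaged 1 CPM (counts per 1000000 counts of a library) or more, whereas TYR was at 0 in all libraries and MLANA, DCT and TYRP1 averaged below 1 CPM. Of 9 markers of smooth muscle and fibroblasts, MYH11, DES, DCN, THY1 and COL1A2 averaged below 1 CPM. The summed level of all 9 spanned 30.2 to 32.5 CPM with DMSO, 19.7 to 23.2 with 5 µM and 12.4 to 15.9 with 10 µM. Most of this sum was PDGFRB, which averaged 22.7, 12.4 and 8.59 CPM in the DMSO, 5 µM and 10 µM groups. PDGFRA averaged 3.31, 2.12 and 0.977 CPM, LUM 2.41, 3.71 and 2.27 CPM and LMOD1 1.64, 1.56 and 1.60 CPM, so the markers did not move alike. The 3 endothelial markers summed to between 1.84 and 3.70 CPM in all libraries, and the leukocyte pair PTPRC and CD68 to 53.3 to 58.7 CPM in DMSO and 87.0 to 130 CPM at 10 µM, with PTPRC averaging below 1 CPM. The part of these markers in the results was not tested.

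ACTA2 and RHOB rose at 10 µM TP-472, and ACTA2 rose at 5 µM as well, while the other 7 tested genes were not called at either dose. A gene was called when its fold change was at least 1.5 and its Benjamini-Hochberg adjusted p in edgeR's quasi-likelihood test was under 0.05. At 5 µM 1 of the 9 tested genes was called up, where 2.14% of all tested genes were called up, and none was called down, where the share over all genes was 2.72%. At 10 µM 2 were called up and none down, against 8.57% and 10.5% of all genes. Between the doses none was called in either direction, against 1.42% up and 2.59% down over all genes, while 3 were higher and 2 lower at 10 µM at an unadjusted p under 0.05. For falls against DMSO the unadjusted counts were 1 at 5 µM and 3 at 10 µM, and both DESeq2 and limma-voom gave the same counts of calls as edgeR in all 3 comparisons. In so short a list a single gene makes a large share, so no more than these counts is read from them. The median log2 fold change of the set was 0.0012 at 5 µM and 0.11 at 10 µM, beside 0.0054 and 0.011 over all tested genes.

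By adjusted p alone, without the limit on fold, 2 of the 9 genes were higher at 5 µM, where 4.4% of all genes were higher and 5.81% lower. At 10 µM 2 were higher and 1, CALD1, was lower, against 16.4% and 18% of all genes. Between the doses 1, RHOB, was higher at 10 µM, against 2.87% higher and 5.53% lower over all genes. Without replicate 1 at 10 µM the calls at 5 µM were 2 up, ACTA2 and TAGLN, and none down, against 3.43% and 3.98% of all genes; those at 10 µM were again ACTA2 and RHOB, with none down, against 8.17% and 11%. By adjusted p alone that smaller fit put 3 genes higher at 5 µM (ACTA2, RHOB and TAGLN) and 3 lower (CALD1, MYL9 and TPM1), where 16.5% of all genes were higher and 17.6% lower. At 10 µM it put 2 higher (ACTA2 and RHOB) and 4 lower (CALD1, CNN2, MYL9 and TPM2), against 23% and 25.8%. Between the doses it put 2 higher at 10 µM (RHOB and TPM1) and 3 lower (CALD1, CNN2 and TPM2), against 8.8% and 15.4%. More genes passed over the whole table in that fit, among the contractile genes and outside them.

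**Figure D1:**
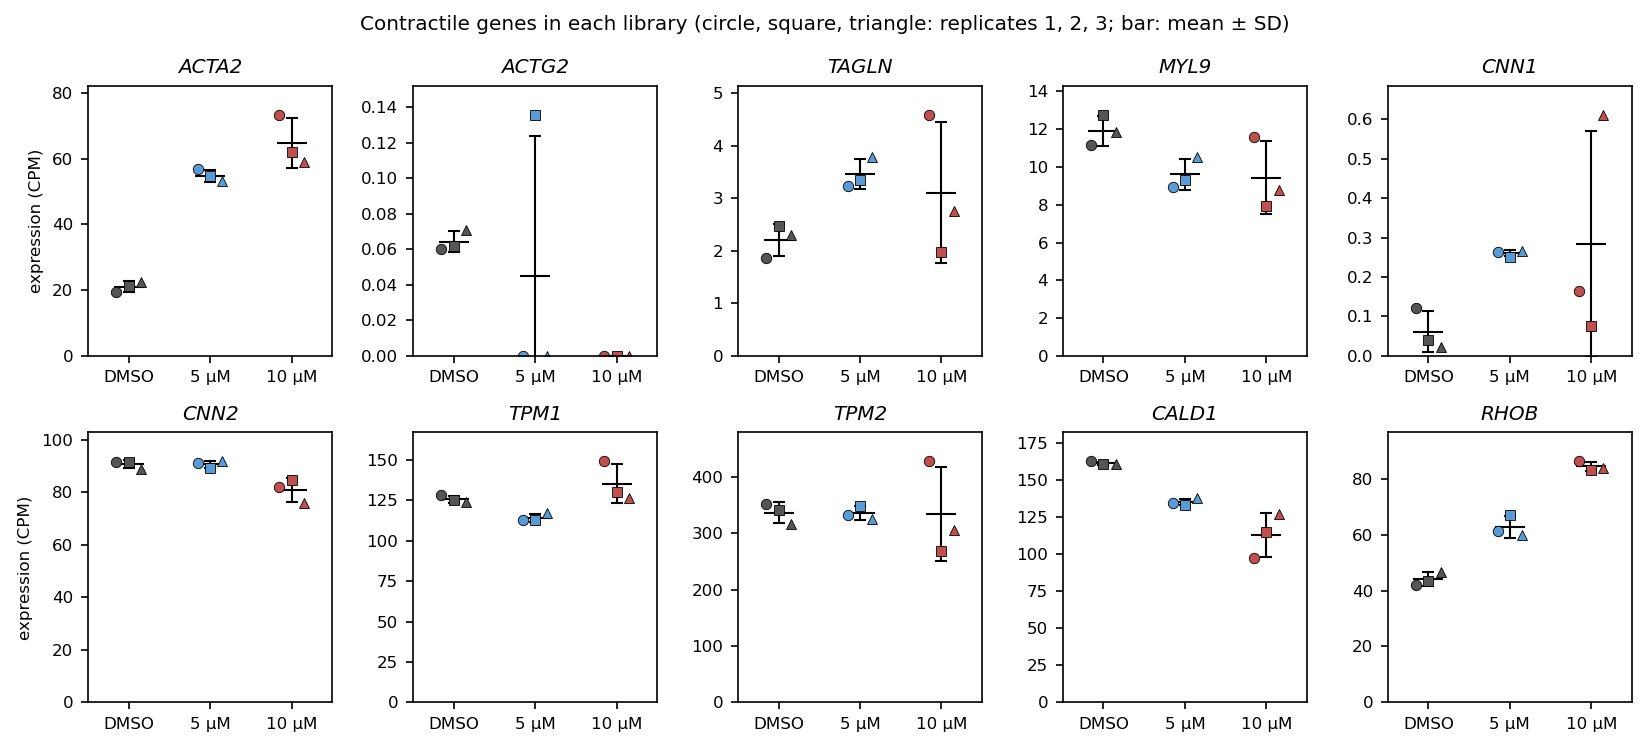
Expression in CPM (vertical axes, linear from 0) of the 10 genes in each of the 9 libraries, by group on the horizontal axes; symbols are replicates 1, 2 and 3, and bars the mean ± SD, drawn only where above 0. ACTA2 and RHOB are higher without overlap between DMSO and either dose, CALD1 runs downward, and replicate 1 at 10 µM lies apart in TAGLN, MYL9, TPM1, TPM2 and CALD1.

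Smooth muscle alpha actin, the product of ACTA2, is the actin isoform that marks contractile smooth muscle and myofibroblasts. Its gene was measured at 19.5, 21.3 and 22.5 CPM in the DMSO libraries. At 5 µM the values were 56.7, 54.5 and 53.1 CPM, and at 10 µM they were 73.2, 61.9 and 58.8 CPM. Every treated library lay above every DMSO library, and the 3 groups did not overlap, although the lowest value at 10 µM was only a little above the highest at 5 µM. The group means were 21.1 ± 1.52, 54.8 ± 1.82 and 64.7 ± 7.60 CPM (SD, n = 3 each). ACTA2 rose 2.60-fold at 5 µM, a log2 fold change of 1.38 (SE 0.10, adjusted p = 4.2e-05), and 3.07-fold at 10 µM, a log2 fold change of 1.62 (SE 0.10, adjusted p = 2.88e-06). The step from 5 to 10 µM was 0.24 (SE 0.10, adjusted p = 0.164) and did not pass the test. Without replicate 1 at 10 µM the log2 fold change at that dose was 1.52. The summed markers of smooth muscle and fibroblasts, most of that sum being PDGFRB, were lower at both doses, where ACTA2 was higher.

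ACTA2 lies at chr10:88935074-88991339 on the minus strand (GENCODE 29, GRCh38), and its neighbourhood bears on what its counts hold. FAS, which encodes a death receptor of the tumour necrosis factor receptor family, lies at chr10:88990582-89015785 on the plus strand, head to head with it. The genes overlap by 758 bp, of which 380 bp are exonic in both, or 12.8% of the exonic length of ACTA2. RefSeq gives ACTA2 an upstream start only 94 bp from a FAS start and another start 38564 bp further into the gene. ACTA2-AS1, an antisense RNA at chr10:88932390-88940820 on the plus strand, shares 516 exonic bp, or 17.3%, with the 3′ end of ACTA2. Of the 50-base words in ACTA2 transcripts, 11.1% occur on the opposite strand of FAS and 13.2% on that of ACTA2-AS1, and no member shared as much as 1% with another gene on its own strand. STAMBPL1 spans much of the same region on the plus strand but shares no exonic base with ACTA2.

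The libraries are described as strand-specific, but no source used here gives the setting used in counting, so reads of ACTA2 and of its antisense neighbours may not be separated. In DMSO the CPM of FAS were 16.4, 19.1 and 17.7, in the 5 µM libraries 43.2, 40.3 and 47.1, and in the 10 µM libraries 58.96, 59.01 and 61.34. Its groups did not overlap, and it was called up at both doses, with log2 fold changes of 1.29 (SE 0.09, adjusted p = 3.18e-05) and 1.75 (SE 0.09, adjusted p = 9.73e-07). The ratio of ACTA2 to FAS in CPM lay between 0.959 and 1.35 in the 9 libraries. How much of the ACTA2 change comes from reads in the shared exon was not tested.

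The expected counts give a direct view of shared reads, because a count that is not whole was divided between genes. FAS was whole, within 0.02 counts, in 9 of 9 libraries. ACTA2 and ACTA2-AS1 were each whole in 1 of 9, while their sum was whole in 9 of 9. Reads were thus divided between ACTA2 and ACTA2-AS1, which share 50-base words only on opposite strands, and the FAS counts show no such division. ACTA2-AS1 took 0.611% to 2.71% of the sum, at 0.123 to 0.543 CPM in DMSO and 0.730 to 1.63 CPM at 10 µM, and was not called, with a log2 fold change of 1.44 (SE 0.64, adjusted p = 0.111). When ACTA2 and ACTA2-AS1 were summed before the fit, the ACTA2 log2 fold changes were 1.37 and 1.61. STAMBPL1 was not called either, at −0.01 (SE 0.12, adjusted p = 0.949) at 10 µM.

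**Figure D2:**
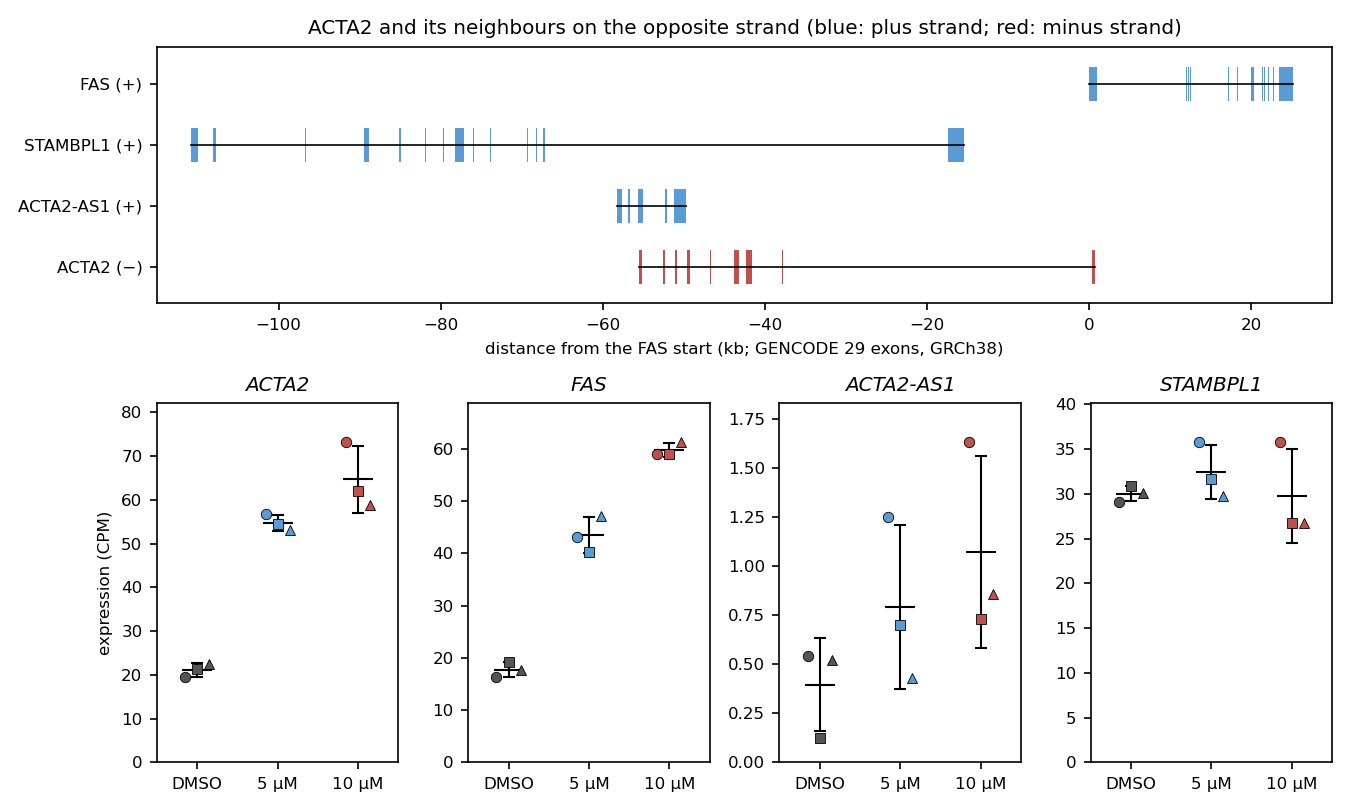
The upper panel draws GENCODE 29 exons of ACTA2 and its neighbours to scale, with the horizontal axis in kb from the FAS start; the lower panels give their expression in CPM in each library, with the mean ± SD of each group. ACTA2 and FAS are higher in every treated library than in any DMSO library, whereas STAMBPL1 overlaps between groups.

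ACTG2, the gamma actin of visceral smooth muscle, was at the edge of detection. It had expected counts of 3, 3 and 3 in DMSO, 0, 7 and 0 at 5 µM and 0, 0 and 0 at 10 µM. A count of 0 in 1 library allows up to 3 counts, or 0.0577 to 0.0709 CPM depending on the library. The 10 µM libraries lay below the DMSO libraries, but the gene was not tested. With so few counts no difference from DMSO is read. Such limits cover counting error only. ACTG2, whose window holds an intact pair of CArG boxes, was at or near 0 in all groups, and binding of SRF at these boxes was not tested.

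The filament binding proteins of smooth muscle, TAGLN and CNN1, were low and did not pass the test against DMSO. TAGLN encodes transgelin, an actin cross-linking protein of smooth muscle. In DMSO it had 1.87, 2.47 and 2.29 CPM, with 5 µM TP-472 3.24, 3.35 and 3.78 CPM, and with 10 µM 4.58, 1.98 and 2.75 CPM. The 5 µM libraries all lay above the DMSO libraries, while those at 10 µM overlapped both groups. The log2 fold change was 0.64 (SE 0.29, adjusted p = 0.211) at 5 µM and 0.49 (SE 0.29, adjusted p = 0.230) at 10 µM. These results turned on replicate 1 at 10 µM, the highest library. Without it TAGLN at 5 µM had the same log2 fold change of 0.64 with a smaller SE of 0.22 and was called (adjusted p = 0.0313), while at 10 µM the value was 0.09 (SE 0.24, adjusted p = 0.782). TAGLN, at chr11:117199321-117204782 on the plus strand, overlaps 446 exonic bp of PCSK7 on the other strand, or 11.4% of its exonic length, and PCSK7 averaged 47.4, 56.4 and 51.2 CPM in the DMSO, 5 µM and 10 µM groups. The expected counts of TAGLN were whole in 9 of 9 libraries, so they show no division of reads with PCSK7. The part of PCSK7 reads in the TAGLN values was not tested.

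CNN1 encodes calponin 1, which inhibits the myosin ATPase in smooth muscle. Its expected counts were 6, 2 and 1 in DMSO, 12, 13 and 13 at 5 µM and 8, 4 and 30 at 10 µM. All 5 µM libraries were above DMSO, and replicate 3 alone carried most of the 10 µM counts. The log2 fold changes of 2.01 (SE 0.94, adjusted p = 0.227) and 2.13 (SE 0.94, adjusted p = 0.108) have intervals too wide to place the gene. Leaving out single libraries moved the value at 10 µM between 0.91 and 3.02, the lower bound being without replicate 3 at that dose.

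MYL9 encodes the myosin light chain whose phosphorylation starts contraction. The DMSO libraries had 11.1, 12.8 and 11.8 CPM, the 5 µM libraries 8.96, 9.31 and 10.5 CPM, and the 10 µM libraries 11.6, 7.92 and 8.80 CPM. The 5 µM libraries lay below DMSO without overlap, and at 10 µM only replicate 1 reached the DMSO range. The log2 fold changes were −0.31 (SE 0.15, adjusted p = 0.242) and −0.34 (SE 0.15, adjusted p = 0.111), neither of which passed the test. Without replicate 1 at 10 µM they were −0.31 (SE 0.11, adjusted p = 0.0326) and −0.51 (SE 0.12, adjusted p = 0.00217), below the adjusted p limit but within 1.5-fold.

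Tropomyosins wind along the actin filament and set which proteins may bind it, and TPM2 had the highest level per length of the 10 genes. Its CPM were 351, 342 and 316 in DMSO, 332, 349 and 324 with 5 µM, and 427, 268 and 305 with 10 µM. Its log2 fold changes were −0.0049 (SE 0.15, adjusted p = 0.991) and −0.01 (SE 0.15, adjusted p = 0.958), with the 10 µM libraries spread on both sides of DMSO. Without replicate 1 the value at 10 µM was −0.23 (SE 0.06, adjusted p = 0.00226), so the level of TPM2 at this dose rests on that library. For TPM1 the CPM were 128, 125 and 124 in DMSO, 113, 113 and 117 with 5 µM, and 149, 130 and 127 with 10 µM. All 5 µM libraries of TPM1 were below all others. None of its differences passed the test, the log2 values being −0.14 (SE 0.08, adjusted p = 0.319) at 5 µM, 0.11 (SE 0.08, adjusted p = 0.315) at 10 µM and 0.24 (SE 0.08, adjusted p = 0.0818) between the doses. Without replicate 1 at 10 µM TPM1 was at −0.14 (SE 0.04, adjusted p = 0.0102) at 5 µM, 0.03 (SE 0.04, adjusted p = 0.610) at 10 µM and 0.17 (SE 0.04, adjusted p = 0.00897) between the doses, all within 1.5-fold. Between the doses TPM2 was then at −0.23 (SE 0.06, adjusted p = 0.00647), beside −0.0080 (SE 0.15, adjusted p = 0.980) with all libraries.

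CALD1 encodes caldesmon, which clamps tropomyosin on the filament and restrains myosin. In DMSO it had 162, 161 and 160 CPM, with 5 µM TP-472 134, 133 and 138 CPM, and with 10 µM 97.2, 115 and 127 CPM. The 3 groups were ordered by dose with no overlap, in the opposite direction to ACTA2. At 10 µM CALD1 was 1.43-fold lower, a log2 fold change of −0.51 (SE 0.09, adjusted p = 0.00217), past the limit on adjusted p and short of the limit on fold. At 5 µM the value was −0.26 (SE 0.09, adjusted p = 0.116). Without replicate 1 at 10 µM the values were −0.26 (SE 0.04, adjusted p = 0.00017) and −0.42 (SE 0.05, adjusted p = 2.03e-06). Without replicate 3 at 10 µM, the highest of its group, CALD1 reached −0.61 (adjusted p = 0.000972) and was called down. Calponin 2, the product of CNN2, is the calponin of non-muscle cells, and its gene spanned 88.8 to 91.5 CPM in DMSO, 89.3 to 91.7 with 5 µM and 76.0 to 84.7 with 10 µM. The 10 µM libraries were below all others, and the log2 fold change of −0.16 (SE 0.07, adjusted p = 0.0937) did not pass the test; without replicate 1 it was −0.18 (SE 0.05, adjusted p = 0.011). Between the doses CALD1 was at −0.26 (SE 0.09, adjusted p = 0.120) and CNN2 at −0.16 (SE 0.07, adjusted p = 0.171), and without replicate 1 they were at −0.16 (SE 0.05, adjusted p = 0.0183) and −0.18 (SE 0.05, adjusted p = 0.0222). CNN2 carries an intact CArG box in its window and was within 1.5-fold of DMSO at both doses. Binding of SRF at this box was not tested.

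RHOB encodes an endosomal and membrane-bound small GTPase whose transcript is short-lived and inducible by stress. Its CPM were 42.1, 43.5 and 46.8 in DMSO, 61.3, 67.1 and 59.9 with 5 µM, and 86.2, 83.2 and 83.9 with 10 µM. The groups were stepped by dose with no overlap, and the 10 µM libraries lay close together. RHOB rose 1.91-fold at 10 µM, a log2 fold change of 0.94 (SE 0.08, adjusted p = 1.57e-05). At 5 µM it was 1.42-fold higher, 0.51 on the log2 scale (SE 0.08, adjusted p = 0.00266), which is under the limit on fold. With all libraries in the fit it was also the only 1 of the 9 genes past the adjusted p limit between the doses, at 0.43 (SE 0.08, adjusted p = 0.00858), whereas 5 passed it without replicate 1 at 10 µM, RHOB at 0.41 (SE 0.06, adjusted p = 0.000142). Without replicate 1 the value at 10 µM was 0.92. RHOB is a gene of a single exon at chr2:20447074-20449445 on the plus strand, and no other gene of the annotation overlaps it.

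**Figure D3:**
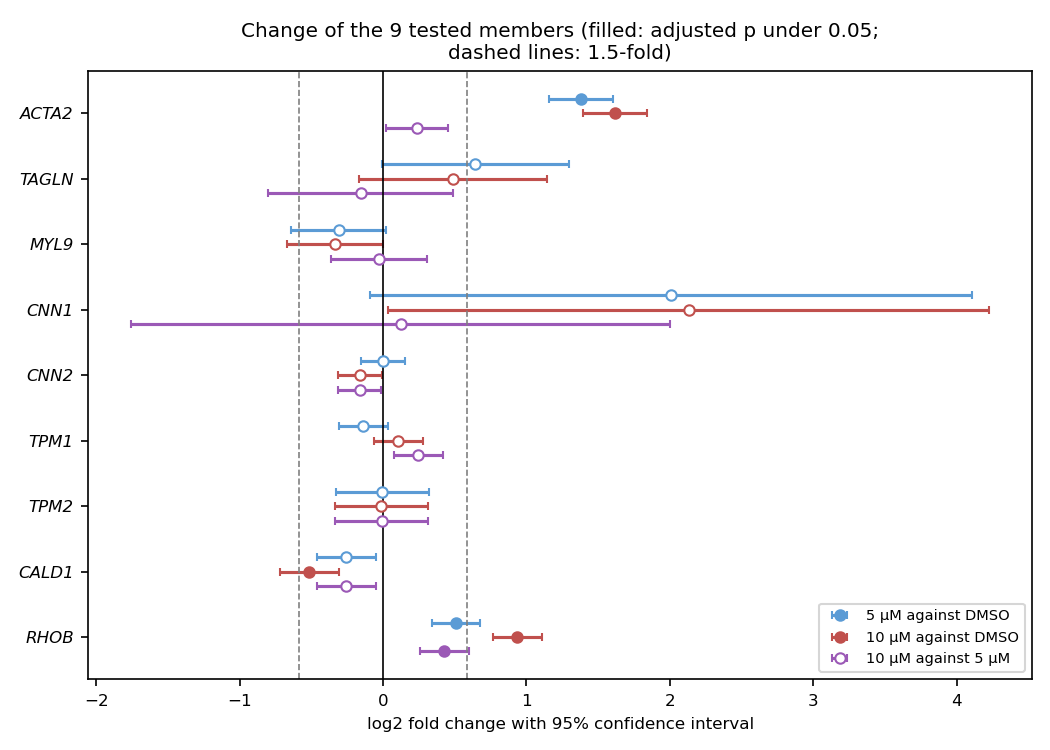
Log2 fold change (horizontal axis) of the 9 tested genes in each of 3 comparisons, with 95% confidence intervals from the fit; filled points have an adjusted p under 0.05 and dashed lines mark 1.5-fold. Filled points are found in ACTA2 and RHOB on the higher side and in CALD1, at −0.51, on the lower side.

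Per length of transcript, the levels in DMSO ran from TPM2 at 284 ± 15.4 CPM per kb (SD, n = 3) through TPM1 at 114 ± 1.98, CALD1 at 60.5 ± 0.37, CNN2 at 42.3 ± 0.72, RHOB at 18.6 ± 1.00 and ACTA2 at 15.6 ± 1.13 to MYL9 at 6.20 ± 0.42 and TAGLN at 1.80 ± 0.25. ACTG2 and CNN1, at 0.044 and 0.038 CPM per kb, could not be ordered. By median transcript length ACTA2 at 5 µM was at 40.6 ± 1.35 CPM per kb, beside CNN2 at 42.3 ± 0.59. By that length the gap between them was of the size of their spread. At 10 µM ACTA2 was at 47.9 ± 5.63 and RHOB at 35.6 ± 0.64 CPM per kb. The lengths are medians of coding transcripts, and counting the union of exons instead moved TPM1 from rank 2 to rank 5. By the union of exons ACTA2 was at 7.09, CNN2 at 24.9 and RHOB at 18.6 CPM per kb in DMSO. Where ACTA2 stands beside CNN2 and RHOB thus depends on the length used.

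Across the 9 libraries the level of RHOB followed that of ACTA2 (Pearson r = 0.934 on log2 CPM) and ran against that of CALD1 (r = −0.922), and ACTA2 ran against CALD1 (r = −0.883). These correlations are descriptions, since the points are 3 dose groups that share their treatment and their scaling. By the same measure over 13679 genes, the patterns most like ACTA2 were those of TAF3, a subunit of the general transcription factor TFIID (r = 0.995), the histone gene HIST2H2BE (r = 0.994) and KHK, which encodes ketohexokinase (r = 0.994). In the 3 groups TAF3 averaged 13.6 ± 0.17, 19.8 ± 0.33 and 21.9 ± 0.89 CPM (SD, n = 3 each). For RHOB they were KIAA1324 (r = 0.996), the clock gene ARNTL (r = 0.993) and DUSP10, a phosphatase of MAP kinases (r = 0.992). TAGLN was most like MPPE1 (r = 0.970), CASP6 (r = 0.950) and OCIAD1 (r = 0.946), and TPM1 most like ANXA5 (r = 0.989), EPHX3 (r = 0.973) and BZW2 (r = 0.960), both patterns in which replicate 1 at 10 µM has a large share.

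SRF itself averaged 48.4 ± 2.93, 47.5 ± 1.60 and 47.6 ± 7.15 CPM (SD, n = 3 each) in the DMSO, 5 µM and 10 µM groups, log2 fold changes of −0.03 and −0.02 (SE 0.11 each, adjusted p = 0.924 and 0.899). Of 7 genes for SRF and its cofactors 1 was called up at 10 µM and none down, against 8.57% and 10.5% of all genes. At an unadjusted p under 0.05, 1 was lower, and DESeq2 and limma-voom called none down. MKL1, which encodes MRTF-A, was at 17.2, 22.1 and 20.8 CPM by group mean and MKL2, which encodes MRTF-B, at 29.4, 29.6 and 20.7 CPM, the last being 11.03, 25.3 and 25.8 CPM in the 3 libraries. Neither was called, at 0.28 (SE 0.11, adjusted p = 0.0798) and −0.51 (SE 0.25, adjusted p = 0.155) at 10 µM. Without replicate 1 at 10 µM MKL1 was at 0.39 (SE 0.08, adjusted p = 0.000872) and MKL2 at −0.21 (SE 0.08, adjusted p = 0.0431), both within 1.5-fold. The gene called was MYOCD, for myocardin, the cofactor of cardiac and smooth muscle, at a very low level of 0.0823 to 0.221 CPM in DMSO and 1.13 to 1.47 CPM at 10 µM. Its log2 fold change was 3.30 (SE 0.55, adjusted p = 0.00135). MYOCD had expected counts of 11, 4 and 4 in DMSO and 71, 58.87 and 69 at 10 µM. It reached the filter on low counts mainly through the treated libraries, where it is high, so its rise is not read as an ordinary call. Of the 7 genes 1 was called up and none down at 5 µM, against 2.14% and 2.72% of all genes. None was called up at 5 µM by limma-voom, without DMSO replicate 2 or 3, or without replicate 1 or 2 at 5 µM.

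Other target genes of MRTF and SRF were split. Of 15 tested, 5 rose and 2 fell at 10 µM, against 8.57% and 10.5% of all genes, with a list median of −0.07. The risers were led by CTGF, a secreted matricellular protein, which went from 34.9 to 35.7 CPM in DMSO to 128 to 134 CPM at 10 µM, a log2 fold change of 1.88 (SE 0.07, adjusted p = 1.41e-07). Next were its relative CYR61 at 1.495 (SE 0.08, adjusted p = 1.44e-06) and ANKRD1, a muscle ankyrin repeat protein, at 1.56 (SE 0.09, adjusted p = 1.55e-06). These 3 genes are also known targets of YAP and TEAD. The falls were VCL, for vinculin of focal adhesions, at −1.01 (SE 0.13, adjusted p = 0.000355) and FHL1, a LIM domain protein, at −0.89 (SE 0.10, adjusted p = 0.000128). VCL was at 105 CPM in replicate 1 at 10 µM and 152 to 160 CPM in the others, all below the 273 to 285 CPM of DMSO, and without replicate 1 its log2 fold change was −0.85 (SE 0.04, adjusted p = 1.16e-10). At 5 µM 2 rose and 2 fell, against 2.14% and 2.72% of all genes. The falls at 5 µM numbered 1 without any single DMSO or 5 µM library, with a replicate block or with no filter on low counts. At 10 µM they numbered 4 with no filter. Between the doses 4 rose and 1 fell, against 1.42% and 2.59% of all genes. No fall between the doses was called without any single 5 µM library or without replicate 1 at 10 µM.

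Among immediate early genes that SRF serves with ternary complex factors, 5 of 9 tested rose at 10 µM, where 8.57% of all genes rose. The list median at 10 µM was 1.99, beside 0.11 for the contractile genes. At 5 µM 3 rose, against 2.14% of all genes. None fell at 5 or 10 µM, where 2.72% and 10.5% of all genes fell. None was lower at an unadjusted p under 0.05 or called down by DESeq2 or limma-voom. EGR1, a zinc finger transcription factor, spanned 5.91 to 7.76 CPM in DMSO, 25.7 to 29.5 with 5 µM and 120 to 126 with 10 µM, a log2 fold change of 4.21 (SE 0.12, adjusted p = 3.87e-08) at 10 µM. NR4A1, an orphan nuclear receptor, rose by 1.99 (SE 0.07, adjusted p = 1.61e-07) and FOSB, an AP-1 subunit, by 2.32 (SE 0.13, adjusted p = 1.53e-06). The difference between these genes and the contractile ones was not tested.

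**Figure D4:**
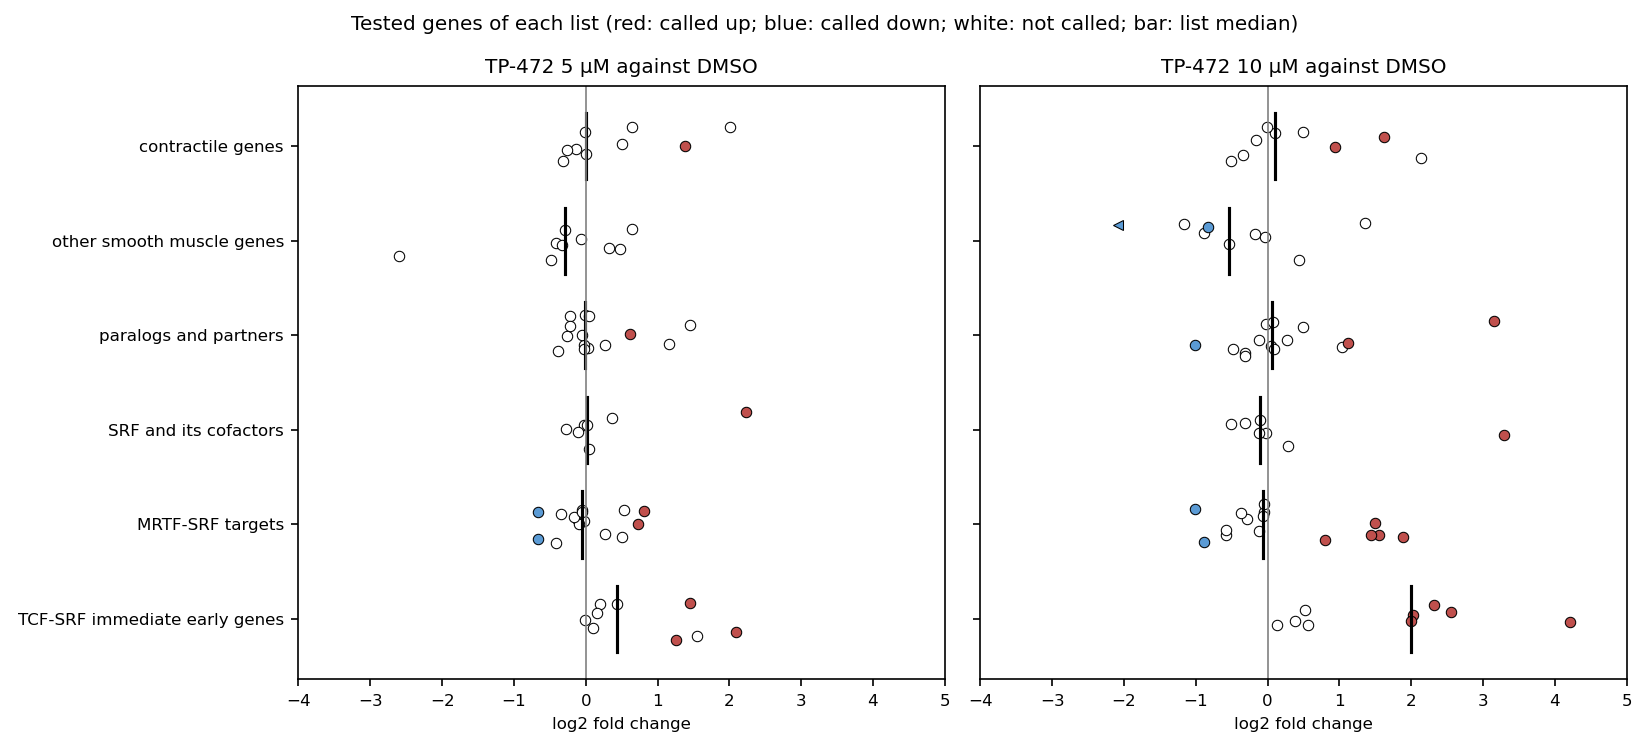
Log2 fold change (horizontal axes) of each tested gene of 6 lists (vertical axes) at 5 µM and 10 µM TP-472 against DMSO; points are genes, red called up, blue called down and white not called, bars are list medians, and the arrowhead is PLN at its bound. The list median at 10 µM is 1.99 for the immediate early genes and 0.11 for the contractile genes, among which ACTA2 and RHOB are red.

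Smooth muscle genes outside the set held 2 calls at 10 µM, both falls, of which 1 is not read as an ordinary call. Of 9 tested, none was called up and 2 were called down at 10 µM, against 8.57% and 10.5% of all genes. The list median was −0.54, the same with PLN at its bound. At an unadjusted p under 0.05, 1 was higher, and DESeq2 and limma-voom called none up. That gene was SMTN, for smoothelin, named here after its values were seen, at 86.0 to 88.7 CPM in DMSO and 111 to 128 CPM at 10 µM. It was past the limit on adjusted p and short of that on fold, at 0.33 (SE 0.08, adjusted p = 0.0238) with 5 µM and 0.44 (SE 0.08, adjusted p = 0.00175) with 10 µM. With the length and GC trend removed SMTN was called up at 10 µM, at 0.64 (adjusted p = 7.92e-05). The falls were SYNM, for the intermediate filament protein synemin, at 75.6 to 81.7 CPM in DMSO and 30.9 to 53.0 CPM at 10 µM (log2 fold change −0.83, SE 0.17, adjusted p = 0.00382), and PLN, for phospholamban, with expected counts of 12, 13 and 11 in DMSO and 0 in all libraries at 10 µM. Against 3 counts in each 10 µM library PLN was at least 4.25-fold lower. Replicate 1 at 10 µM held the lowest SYNM value, 30.9 CPM. Leaving that library out put SYNM at −0.63 (SE 0.06, adjusted p = 5.37e-07), still called down. At 5 µM none was called, against 2.14% up and 2.72% down over all genes. At that dose 1 was higher and 1 lower at an unadjusted p under 0.05, and DESeq2 and limma-voom called none. The falls at 10 µM numbered 1 without any single DMSO library, without replicate 2 at 10 µM or with a filter of 1 CPM in 3 libraries. PLN reached the filter on low counts only through DMSO, the group where it is high, so its fall is not read as an ordinary call.

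Of 14 broadly expressed paralogs and partners, 2 rose and 1 fell at 10 µM, against 8.57% and 10.5% of all genes. The list held genes such as the cytoplasmic actins, TAGLN2, CNN3 and TPM4. The rises were ACTC1, cardiac actin, at 0.0236 to 0.161 CPM in DMSO and 0.423 to 1.30 CPM at 10 µM (log2 fold change 3.16, SE 0.81, adjusted p = 0.0135), and TAGLN3, a neuronal transgelin, at 1.13 (SE 0.17, adjusted p = 0.000728). The fall was MYH10, the heavy chain of non-muscle myosin IIB, at 233 to 237 CPM in DMSO and 77.4, 143 and 131 CPM at 10 µM (−1.01, SE 0.18, adjusted p = 0.0021). Replicate 1 at 10 µM was again the lowest of its group, and all of its group lay below DMSO; without it the log2 fold change was −0.79 (SE 0.04, adjusted p = 1e-09). The rises numbered 1 without DMSO replicate 2 or replicate 3, or with a filter of 1 CPM in 3 libraries. ACTC1 had few expected counts, 8, 3 and 1 in DMSO and 63, 22 and 28 at 10 µM. It reached the filter on low counts mainly through the 10 µM libraries, where it is high.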

How the data were processed

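RNA sequencing of 9 A375 libraries was analysed. Per the labels, the authors used RSEM 1.2.15, Bowtie2 2.1.0 and the hg38 build; the sources used here name no roles, gene annotation, filters or strand setting. The deposited values are expected counts per gene symbol, which RSEM divides between genes that share reads, so 10.6% to 13.8% of values per library are not whole. The labels describe oligo-dT selection and dUTP strand marking, while the series text names ribosomal RNA depletion.

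Expected counts were rounded and fitted in edgeR 4.0.16 (R 4.3.3; filterByExpr, TMM factors, quasi-likelihood F test, 1 fit of 3 groups over 9 libraries), with Benjamini-Hochberg adjustment over 16417 genes. SE was taken as the absolute log2 fold change over the root of the F statistic. CPM use TMM-scaled totals over all symbols; correlations use log2(CPM + 0.5). Alternatives used DESeq2 1.42.0 and limma 3.58.1. Gene coordinates are from GENCODE 29, in which 23900 of 26475 symbols matched, and promoter sequences from RefSeq. The genes, their lists and the tests were chosen with earlier results of these data known. Named were all 10 genes, FAS, ACTA2-AS1, SRF, MKL1, MKL2, up to 3 called rises and 3 called falls of each list with the smallest p at 10 µM, and the 3 genes most like ACTA2, TAGLN, TPM1 and RHOB; STAMBPL1 and PCSK7 were added as overlapping genes. Same-numbered replicates did not deviate together (r from −0.073 to 0.0987), so replicate numbers were not treated as pairs. Markers named for cell types are those of the fixed lists. Results for 2 further gene lists are not reported here.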

Additional observations from a re-analysis of the deposited data

How the results depend on the processing

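The log2 fold changes of the 9 genes kept direction and side of the threshold in 473 of 512 alternative values, reversed in 33 and newly passed in 6. ACTA2 ranged from 1.32 to 1.43 at 5 µM and from 1.42 to 1.68 at 10 µM, and RHOB from 0.90 to 0.98 at 10 µM. The removal of a length and GC trend and the summing of ACTA2 with ACTA2-AS1 were chosen after seeing the data. No source used here states whether strand was used in counting, and ACTG2 and CNN1 have few counts.

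At 5 µM, fitting only the 2 groups called 591 genes up and 729 down and 2 of the contractile genes up; adjusted p alone called 722 up and 954 down, and 2 of the contractile genes. Leaving out 1 library gave 197 to 575 up, 283 to 666 down and 1 to 2 contractile genes up. At 10 µM, adjusted p alone called 2687 up and 2947 down and 1 contractile gene down, and leaving out 1 library gave 0 to 1 down. Between the doses, DESeq2 called 418 up, fitting only the 2 groups 101 up and 165 down, and adjusted p alone 471 up, 908 down and 1 contractile gene up; leaving out 1 library gave 118 to 320 up and 258 to 572 down. The cause was not tested. With a replicate block the counts were 288 up and 399 down at 5 µM, 1269 and 1736 at 10 µM and 176 and 380 between the doses, and no call of a contractile gene changed.

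All reversals were of values that passed no test. CNN2 at 5 µM was −0.000623 with RLE factors, −0.00334 with no filter, −0.000739 with DESeq2 and −0.01407 to 0.01234 on leaving out 1 library. TPM2 at 5 µM was 0.00607 with upper-quartile factors, 0.000713 with a filter of 1 CPM in 3 libraries and −0.04909 to 0.02585 on leaving out 1 library. At 10 µM these were 0.0315, 0.0104 and −0.2347 to 0.1181. Between the doses TPM2 was 0.00215 with RLE factors, 0.0255 with upper-quartile factors, 0.0097 with the 1 CPM filter, 0.00216 with DESeq2, 0.00278 with only the 2 groups and −0.2291 to 0.123 on leaving out 1 library. Between the doses MYL9 was 0.00572 with upper-quartile factors and −0.2031 to 0.08081 on leaving out 1 library, TAGLN −0.5498 to 0.08084 on leaving out 1 library, and CNN1 −0.376 with limma-voom, −0.159 with the replicate block and −1.093 to 0.5683 on leaving out 1 library.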
